A study of Mus musculus with 2 samples.

Results

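The cytosolic ribosomal protein genes are described here: every gene whose symbol is Rpl or Rps followed by a digit, with Rplp0, Rplp1, Rplp2 and Rpsa, and with at least 1 transcript annotated as protein-coding. Pseudogene symbols ending in -ps, the kinase genes starting with Rps6k, and Rpl3 and Rpl3l were left out. The rule took 84 of 55536 annotated genes, 50 with large subunit symbols and 34 with small subunit symbols. Of these, 76 encode standard proteins of the cytosolic ribosome and are called the core genes below (45 large, 31 small). The other 8 entered by symbol alone: the paralogs Rpl7l1, Rpl10l, Rpl22l1, Rpl36al, Rpl39l, Rps27l and Rps27rt, and Rps19bp1, which encodes a nucleolar protein that binds Rps19 and is not a part of the ribosome.

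Total RNA of the gastrocnemius, the large calf muscle, was measured in 2 adult male mice, 1 library per animal. Both animals were B6CASTF1/J, the first-generation hybrid of the C57BL/6J and CAST/EiJ strains, aged 8 to 10 months, and the labels name 1 group, no treatment and no genetic change. The labels number the animals differently but give them 1 shared donor identifier, so the spread between the replicates may be partly technical. With 1 group, the design gives the levels of these genes in this muscle and the differences between its libraries.

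A cytosolic ribosome is built from a small subunit, which reads the messenger RNA, and a large subunit, which joins amino acids. Each needs nearly all of its proteins once per particle, and the genes are typically expressed at high and similar levels across tissues. Their messages typically start with a C followed by an unbroken run of pyrimidines (C or T in the gene), the TOP motif, through which the kinase mTOR and the RNA-binding protein Larp1 control their translation. Because the messages are short and abundant, they have left many processed pseudogenes, intronless copies inserted elsewhere in the genome.

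The start region of these genes is shown because the TOP motif is a feature that the name rule did not use. Each sequence runs from 20 bases before to 20 bases after the annotated start, on the gene's own strand (RefSeq, build GRCm38.p6). Capitals mark the longest run of a C followed by 6 or more pyrimidines that begins within 20 bases of the start. The run of Rps25 begins at -19 and is 11 bases long, so it lies wholly before the annotated start. The first 5 belong to abundant core genes or, for Rpl27a, to a core gene with a low value, and of the last 4, Rpl41, Rpl26 and Rpl10 hold none in this window and Rps27rt only one that begins at its far end.
Rps27, chr3:90213629-90213668, minus strand: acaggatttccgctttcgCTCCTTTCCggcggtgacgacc
Rps25, chr9:44407694-44407733, plus strand: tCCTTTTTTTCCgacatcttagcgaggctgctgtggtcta
Rplp2, chr7:141447631-141447670, plus strand: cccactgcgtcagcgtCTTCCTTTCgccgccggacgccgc
Rps24, chr14:24490658-24490697, plus strand: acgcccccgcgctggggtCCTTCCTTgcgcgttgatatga
Rpl27a, chr7:109519175-109519214, plus strand: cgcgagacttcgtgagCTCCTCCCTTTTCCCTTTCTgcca
Rpl41, chr10:128549149-128549188, minus strand: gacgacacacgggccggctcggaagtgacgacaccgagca
Rpl26, chr11:68901546-68901585, plus strand: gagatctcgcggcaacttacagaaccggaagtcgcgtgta
Rpl10, chrX:74270796-74270835, plus strand: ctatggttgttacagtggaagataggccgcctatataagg
Rps27rt, chr9:114982720-114982759, minus strand: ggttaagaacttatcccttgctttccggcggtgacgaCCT

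RefSeq start regions were found for 65 of the 84 genes. A run of this kind began within 20 bases of the start in 37 of them (56.9%), against 24.4% of 16522 nuclear protein-coding genes and 26.1% of 69 mitochondrial ribosomal protein genes. The letters CGGAAG on either strand, the centre of a site for ETS factors, stood between 250 bases before and 50 after the start in 67.7% of the 65, in 56.5% of the mitochondrial list and in 24.3% of all genes. TATAAA, the TATA box, was found on the gene's strand between 40 and 5 bases before the start in 1.54% of the 65 genes and in 3.18% of all genes. Starts in the annotation used for counting were scored separately. The most abundant coding transcript began with C and at least 4 pyrimidines for 9 of the 76 core genes (11.8%), against 2.34% of 6379 nuclear protein-coding genes at 5 TPM or more. These are matches of letters to annotated starts, and no start was measured. In the RefSeq regions, runs lying wholly before the annotated start were counted as well.

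The estimated counts over all annotated genes came to 36792619 (replicate 1) and 37752252 (replicate 2), of which the 84 genes held 0.539% and 0.615%. At this depth a count of 0 allows up to 3 counts, or 0.0815 and 0.0795 CPM (counts scaled to a common library total), and this covers counting error only. The tissue label was checked on 6 fibre markers (Acta1, Ckm, Myh4, Tnnt3, Atp2a1 and Mylpf), which summed to 82152 and 88532 TPM. TPM is the authors' relative abundance, per transcript length and library. The authors deposited a first quantification, from alignments to the transcripts, which is used unless named otherwise, and a second one made from the reads and an index of transcripts. Lymphocyte markers summed to 0.05 and 0.09 TPM. In whole muscle, fewer cells of a type and less RNA per cell cannot be told apart.

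The ribosomal protein genes were among the more abundant messages of this muscle. Their TPM summed to 14732 in replicate 1 and 15342 in replicate 2. That was 3.42% and 3.51% of the TPM of nuclear protein-coding genes (3.46% ± 0.0641, SD, n = 2). The median gene stood at 158.8 and 172 TPM, and the median core gene at 172.2 and 181.4 TPM. Of the 76 core genes, 61 had a mean of 100 TPM or more and 56 lay within 2-fold of the core median. The SD of log2 TPM over core genes, 1.11, was close to that over 78 mitochondrial ribosomal protein genes, 1.19. In the order of all nuclear protein-coding genes, 69 core genes were among the top 1000 and 59 among the top 500.

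**Figure D1:**
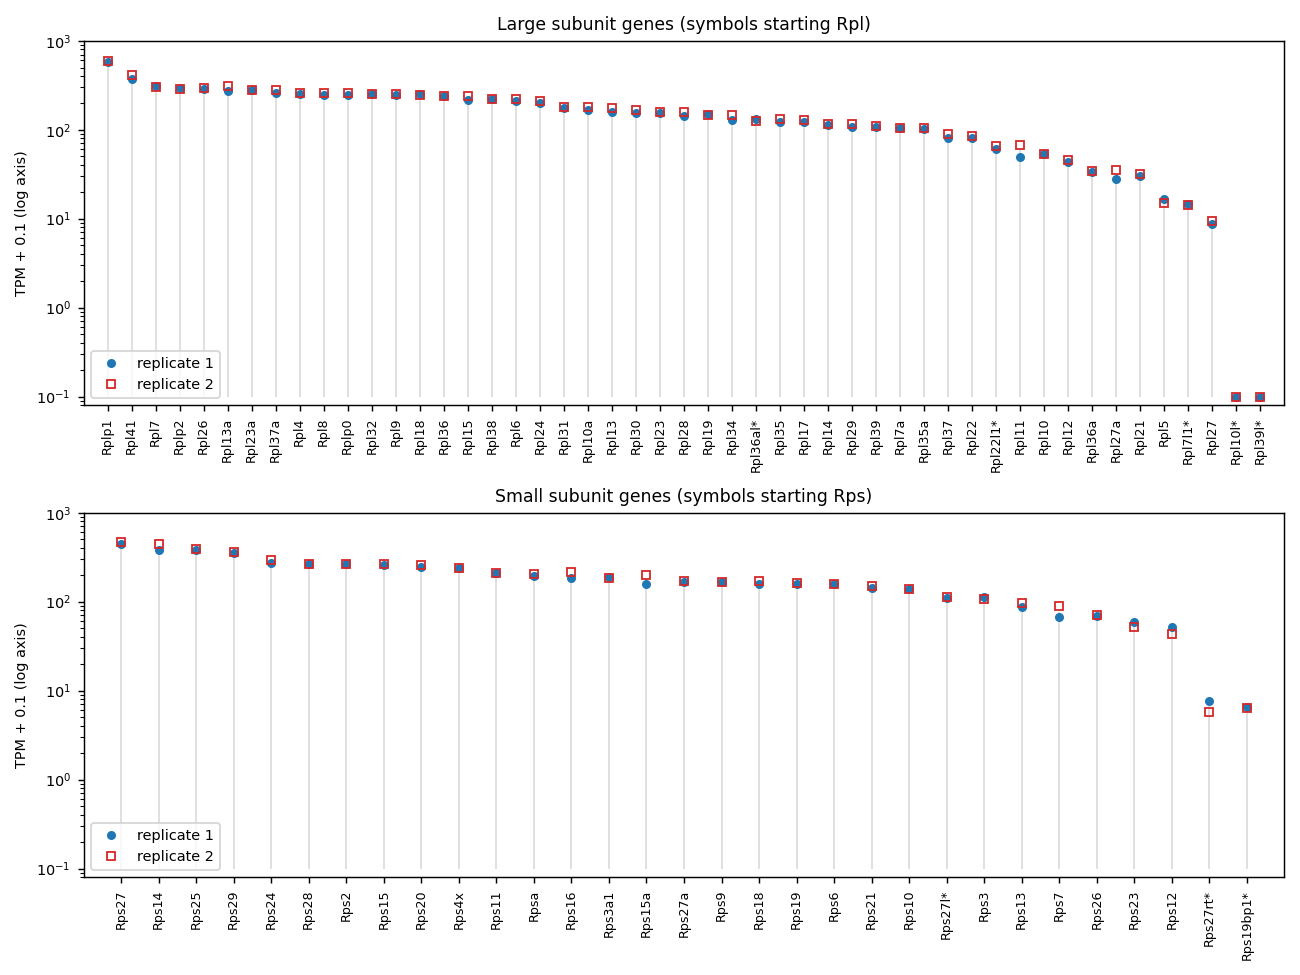
TPM (plus 0.1, log axis) of 80 of the 84 genes in replicate 1 (filled circles) and replicate 2 (open squares), large subunit symbols above and small subunit symbols below, in order of mean TPM. Asterisks mark the 8 genes that are not standard ribosomal proteins. The animals' points lie close together at each gene, and each panel falls slowly to about 100 TPM and then steeply, with Rpl10l and Rpl39l at 0 TPM.

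The 3 proteins of the stalk, the arm of the large subunit that recruits elongation factors, were all in the upper part of the order. Rplp1, an acidic stalk protein, was the most abundant of the 84 genes in both animals, at 573 and 596 TPM (584 ± 16.8, SD, n = 2). Its acidic partner Rplp2 was at 298 and 285 TPM. Rplp0, which anchors them to the subunit, was at 246 and 257 TPM. The acidic proteins, unlike the rest, are present in more than 1 copy per ribosome. Rplp2 stood near Rplp0, and Rplp1 stood above both in each animal. In the second quantification Rplp1 was lower, at 361 and 347 TPM, and Rpl41 was highest.

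Small basic proteins filled most of the remaining top places. Rps27, a zinc-binding protein of the small subunit, was at 449 and 467 TPM. Rps14 was at 377 and 440 TPM, and Rps25, needed for some internal ribosome entry, at 380 and 393 TPM. The ranges of these 3 genes overlapped for Rps14 and Rps25 and not for Rps27. Rpl41, which encodes one of the shortest proteins known, had 375 and 417 TPM. Rps29 was at 352 and 358 TPM, below Rpl41 in both animals, and Rpl7, Rplp2, Rpl26 and Rpl13a lay between 270.09 and 309.96 TPM in single libraries.

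Rpsa and Rps27a lay near the core median. Rpsa, which also occurs at the cell surface as a laminin receptor, was at 196 and 206 TPM. Rps27a, a fusion of ubiquitin with a small subunit protein, was at 167 and 173 TPM. Ribosomal proteins whose symbols the rule does not reach had like levels: Fau had 177 and 202 TPM, and Rack1, the scaffold on the head of the small subunit, 192 and 184 TPM.

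The lower end of the order also held standard ribosomal proteins. Rpl27 was listed at 8.59 and 9.37 TPM, 65.1-fold below Rplp1. Rpl5, which carries 5S ribosomal RNA into the large subunit together with Rpl11, was at 16.6 and 14.8 TPM. Rpl21 was at 29.9 and 31.8 TPM. The animals gave close values, and the gap to the core median was far larger than the spread between them. Rpl27a followed at 27.7 and 35.5 TPM, Rpl36a at 33.4 and 34.0 TPM, Rpl12 at 43.6 and 46.1 TPM and Rps12 at 52.5 and 43.2 TPM.

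The deposited second quantification gave several of these genes much higher values. Rpl27 was at 138.6 and 138.4 TPM there. Rpl10, a late-joining protein of the large subunit, had 53.8 and 53.4 TPM in the first quantification and 256.2 and 246.1 TPM in the second. Rps23, at the decoding site, had 58.3 and 52.1 TPM in the first and 188 and 181 TPM in the second. Each difference between quantifications was larger than that between animals. In all, 10 core genes were 2-fold or more higher in the second quantification: Rpl27, Rpl5, Rpl10, Rps23, Rpl27a, Rps12, Rpl21, Rpl36a, Rpl37 and Rpl11. Rpl36 went the other way, from 238 and 240 TPM to 91.2 and 92.8 TPM, and Rps27rt from 7.52 and 5.73 TPM to 0.

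Near-identical genes elsewhere in the genome were counted next. A copy was defined as a gene outside the 84 that is annotated as a pseudogene or as protein-coding. It had to share at least 25% of its 31-base words with a ribosomal protein gene, with both transcripts read in their own direction. Each copy was assigned to the 1 gene with which it shared the most words. Genes of the 84, such as Rps27 and Rps27rt, were never counted as copies of each other. There were 617 copies, 605 of them annotated as pseudogenes, and 79 of the 84 genes had at least 1. Rpl21 had 57 copies, Rpl7a 40, Rps2 38 and Rpl29 33. Rps27, Rps3, Rps19bp1 and Rpl39l were among those with none. In the transcripts of a core gene, a median of 74.9% of 31-base words occurred in no other gene, down to 5.95% for Rpl36.

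How alike gene and copy are is shown for 4 pairs that hold much of the TPM. Each line gives 60 bases of coding sequence from the annotated transcripts (GENCODE M21, the annotation the authors used, build GRCm38, called mm10 in their files). Capitals mark bases that differ, with positions counted from 1 at the 5′ end of the window. The gene loci are Rps23 at chr13:90922958-90924950 and Rps2 at chr17:24718116-24721929, both on the plus strand, Rpl35 at chr2:39001580-39005624 on the minus strand, and Rpl28 at chr7:4792874-4795066 on the plus strand.
Rps23: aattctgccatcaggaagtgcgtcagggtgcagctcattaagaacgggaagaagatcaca
Rps23-ps1, chr3:37714740-37715164, plus strand: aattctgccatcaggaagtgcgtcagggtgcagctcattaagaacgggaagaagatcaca
Rpl28: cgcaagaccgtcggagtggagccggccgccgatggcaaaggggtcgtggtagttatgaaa
Rpl28-ps1, chr1:128038569-128038982, plus strand: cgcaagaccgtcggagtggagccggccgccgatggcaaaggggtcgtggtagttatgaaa
Rpl35: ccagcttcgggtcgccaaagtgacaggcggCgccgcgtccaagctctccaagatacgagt
Gm2000, chr1:156366040-156366484, plus strand: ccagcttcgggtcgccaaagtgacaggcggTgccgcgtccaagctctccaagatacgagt
Rps2: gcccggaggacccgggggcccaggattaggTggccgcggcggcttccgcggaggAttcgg
Rps2-ps13, chrX:52898588-52899469, plus strand: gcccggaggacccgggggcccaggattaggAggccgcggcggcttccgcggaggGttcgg

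Rps23-ps1 and Rpl28-ps1 matched their genes without a difference over all 425 and 414 bases. Gm2000, which is annotated as protein-coding, differed from Rpl35 at 2 of 445 bases, 1 of them in the window (C31T). Rps2-ps13 differed from Rps2 at 7 of 882 bases, among them T31A and A55G. Identity was not complete for every abundant copy: Rpl10-ps3 differed from Rpl10 at 28 of 768 bases. A read of such a region carries few bases, or none, that tell gene and copy apart.

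Copies were listed with high values. In the first quantification they held 25.5% ± 0.380 (SD, n = 2) of the TPM of genes and copies together, and in the second 16.1% ± 0.0975. Rps23-ps1 was at 291 and 309 TPM, above Rps23 itself, and fell to 73.8 and 86.9 TPM in the second quantification. Rpl10-ps3 was at 244 and 239 TPM in the first and at 0 in both animals in the second. Rpl27-ps3 and Gm11518, both identical to Rpl27 over 411 bases, were each listed at 105.5 and 105.3 TPM, and in the second quantification each at 4.2 and 1.6 TPM. Of the 617 copies, 102 had a mean of 1 TPM or more and 31 had 50 TPM or more. Which locus produced these reads was not tested.

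For 17 genes the copies held more TPM than the gene. Their part of the sum was 95.9% for Rpl27, 92.3% for Rpl5, 84.9% for Rpl27a, 84.5% for Rps23, 83.0% for Rpl21, 81.9% for Rpl10, 81.1% for Rpl12 and 80.4% for Rps12. It was 71.4% for Rpl37 and 69.9% for Rpl36a. The 17 included all 10 genes that were 2-fold higher in the second quantification. Of the 15 core genes under 100 TPM, all but Rps13 and Rpl22 were among the 17, and the copies of Rps13 held 48.7%.

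**Figure D2:**
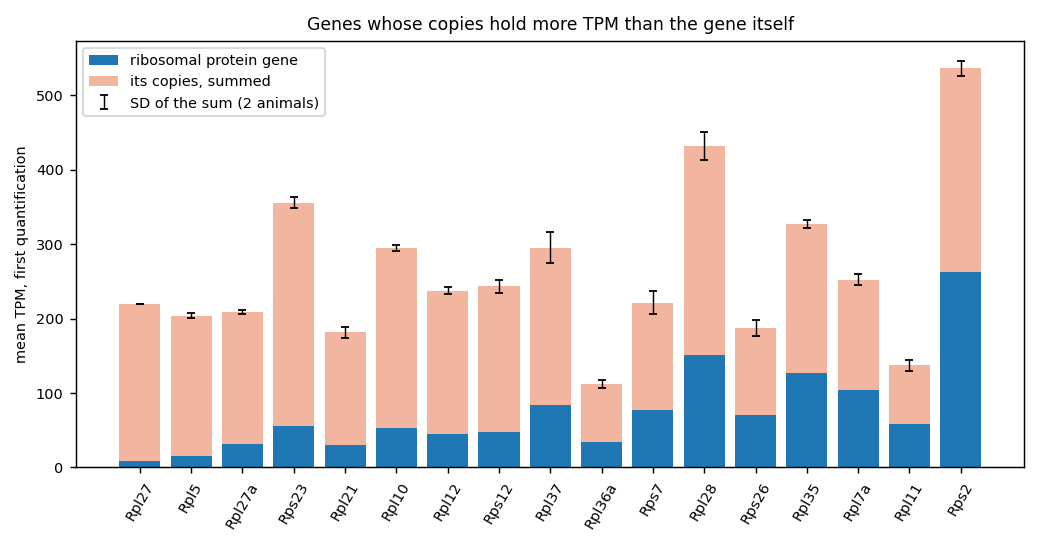
Mean TPM in the first quantification of the 17 genes whose copies held more TPM than the gene, with the gene in blue and its summed copies stacked on it in pink, and the SD of the sum over the 2 animals as bars. The genes differ from 8.98 TPM (Rpl27) to 262 TPM (Rps2), while the sums run from 112 TPM (Rpl36a) to 536 TPM (Rps2).

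Adding the copies to their gene gave a more even set in the first quantification. Among core genes the highest sum was 7.56-fold above the lowest, against 65.1-fold for genes alone, and 70 of 76 lay within 2-fold of the median. The SD of log2 TPM over core genes was 1.11 for genes alone and 0.53 for the sums. In the second quantification the change was smaller: 11.1-fold for genes alone and 7.93-fold for sums, with SDs of 0.75 and 0.62. The median core sum was 251 TPM in replicate 1 and 258 TPM in replicate 2, and 75 of the 76 reached 100 TPM. The exception was Rpl22, at 82.9 TPM with its copies and 82.4 TPM without them. Rpl27 with its copies stood at 219.9 and 220.1 TPM and Rpl5 at 201 and 206 TPM, both inside the bulk of the set.

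The quantifications also came closer for the sums. No core gene was 2-fold higher in the second quantification once copies were added in both. Rpl36 was still 2-fold lower, at 268 against 134 TPM. Across the 76 core genes, Pearson's r between the quantifications on the log2 scale was 0.73 for genes alone and 0.87 for sums. This is a description across genes, which share their libraries and are not independent.

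**Figure D3:**
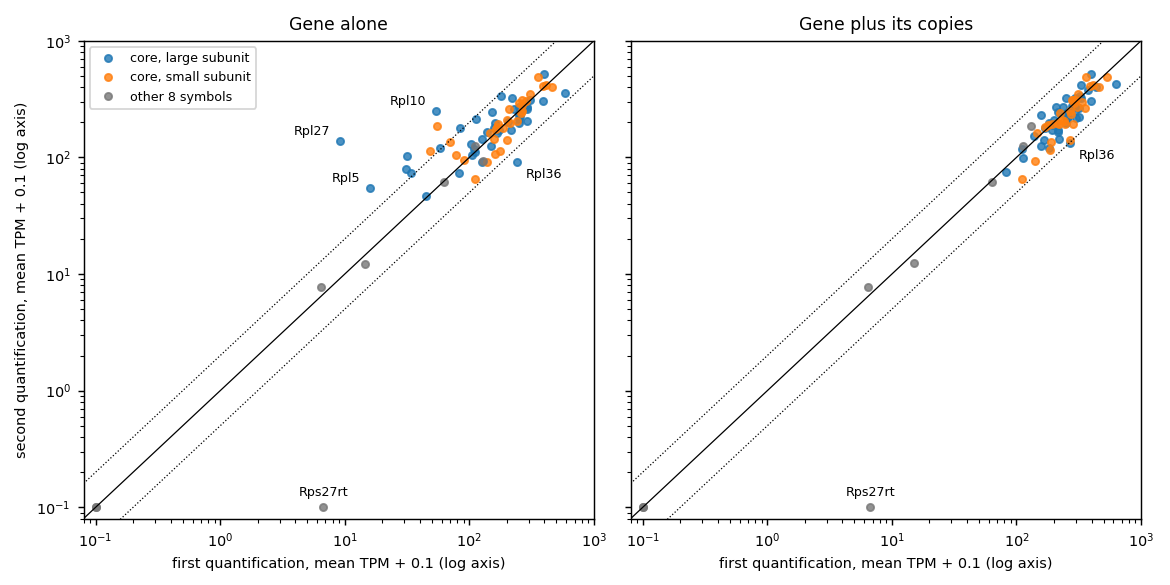
Mean TPM plus 0.1 of the 84 genes in the first (x) and second (y) quantification, both axes log, for genes alone on the left and with their copies added on the right. The solid line marks equal values and the dotted lines 2-fold differences. On the left 10 core genes lie above the upper dotted line, among them Rpl27, Rpl5 and Rpl10, and on the right none does.

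Large and small subunit genes had close levels. The median was 152 and 159 TPM for the 50 large subunit genes and 175 and 189.6 TPM for the 34 small subunit genes. On the log2(TPM + 0.1) scale the large subunit median was lower by 0.22 ± 0.03 (SD, n = 2), with replicate values of -0.20 and -0.25. With copies added the difference was -0.08, and in the second quantification it was -0.07. Among core genes alone the second quantification turned the direction, with medians of 193.8 and 185.3 TPM for the large subunit and 191.5 and 183.6 TPM for the small one.

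The mitochondrial ribosome, built from a separate set of nuclear genes, served as a comparison. Its 78 genes had a median of 24.1 TPM in both replicates and held 0.544% of nuclear protein-coding TPM. The cytosolic median was higher by 2.77 ± 0.08 on the log2(TPM + 0.1) scale (SD, n = 2). Values of single genes overlapped: Mrps21 had 127 and 124 TPM, above the core gene Rpl22 at 80.9 and 83.9 TPM. Copies of Rpl22 held only 0.70 and 0.37 TPM.

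Paralogs with their own genes differed widely in level. Rpl22l1, a close relative of the RNA-binding protein Rpl22, was at 60.3 and 65.7 TPM and Rpl22 at 80.9 and 83.9 TPM. The log2 ratio of Rpl22 to Rpl22l1 was thus only 0.39 ± 0.05 (SD, n = 2), with no overlap between the genes. Rps27l, which differs from Rps27 by few residues, was at 111.1 and 112.3 TPM, and Rps27 was above it by 2.03 ± 0.03 on the log2 scale. Rpl7 exceeded Rpl7l1, an assembly factor of the nucleolus, by 4.40 ± 0.01.

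Other paralogs were at or near 0. Rpl10l and Rpl39l, known from the testis, had 0 counts in both libraries, which allows up to 0.0815 and 0.0795 CPM. Rps27rt, an intronless relative of Rps27, had 7.52 and 5.73 TPM, but only 7.27% of its 31-base words are its own, and it was listed at 0 in the second quantification. Rps4l, outside the rule as it is annotated as a pseudogene, was below Rps4x by 8.21 ± 0.99 on the log2 scale.

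In 2 pairs the paralog was above the named gene in the first quantification. Rpl36al was at 130.3 and 126 TPM and Rpl36a at 33.4 and 34.0 TPM, a log2 ratio of Rpl36a to Rpl36al of -1.93 ± 0.05. With copies added, Rpl36a stood at 108 and 115 TPM and Rpl36al at 132 and 128 TPM. In the second quantification the ratio of the genes alone was -0.35. Copies of Rpl36al held 87.5 and 96.9 TPM there, and copies of Rpl36a 21.1 and 29.0 TPM. Rpl37rt, annotated as a pseudogene, was at 201 and 221 TPM and Rpl37 at 80.01 and 88.71 TPM, a log2 ratio of -1.32. Rpl37rt is also the 1 copy counted for Rpl37 above. It differs from the coding transcript Rpl37-201 at 1 of 294 bases, so few reads can tell them apart. In the second quantification Rpl37 was above Rpl37rt, by 0.30.

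Each gene's TPM was divided among annotated transcripts, 495 in all, of which 231 are annotated as protein-coding. Coding transcripts held 82.2% ± 0.561 (SD, n = 2) of the 84 genes' TPM, against 87.6% in other nuclear protein-coding genes. Transcripts with a retained intron held 8.39%, processed transcripts, which have no open reading frame annotated, 5.42%, and transcripts annotated for nonsense-mediated decay 4.01%. In the second quantification coding transcripts held 73.4%, against 84.5% in other genes. The typical gene was almost wholly coding. Over genes at 5 TPM or more, the median was 99.0% in the first quantification and 94.5% in the second. Over other nuclear protein-coding genes at 5 TPM or more it was lower, 95.8% and 93.2%.

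Coding transcripts held 90% or more of TPM in 56 genes in the first quantification and in 42 in the second. Coding transcripts held under 50% of TPM in 16 genes in the first quantification, in 19 in the second and in 11 in both. For Rps16 they held 1.04%, with Rps16-203, a retained-intron transcript, at 116.7 and 145.0 TPM and the coding Rps16-201 at 1.96 and 2.18 TPM. For Rps20 they held 2.21%, with the retained-intron Rps20-201 at 180.5 and 181.3 TPM. In both animals the retained-intron transcript was far above the coding one, though Rps16-203 itself was higher in replicate 2. Rpl35 (2.41%) and Rpl37 (5.77%) were assigned mostly to processed transcripts, such as Rpl35-203 at 119.7 and 127.4 TPM. All 4 were also under 50% in the second quantification. These shares count only a gene's own transcripts. Copies identical or nearly identical to their coding transcripts were listed separately in the first quantification. Their mean TPM was 200 for Gm2000 (Rpl35), 211 for Rpl37rt (Rpl37), 33.6 for Rps16-ps2 (Rps16) and 39.4 for Gm4332 (Rps20). How far reads of coding transcripts were listed under copies was not tested.

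For other genes the class depended on the quantification. Rpsa had 14.2% on coding transcripts in replicate 1 and 2.70% in replicate 2 in the first quantification (mean 8.45%), where Rpsa-206, annotated for nonsense-mediated decay, held 156.8 and 171.9 TPM, and a mean of 64.2% in the second. Rps18 had 7.89% in the first and 28.5% in the second. Rpl14 went from 95.1% to 11.6%. Of the 78 genes with more than 1 transcript, 76 had the same leading transcript in both animals, but only 47 had the same one in both quantifications. The leading transcript was thus the same between libraries more often than between methods, while its share could differ between libraries, as for Rps24 below.

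**Figure D4:**
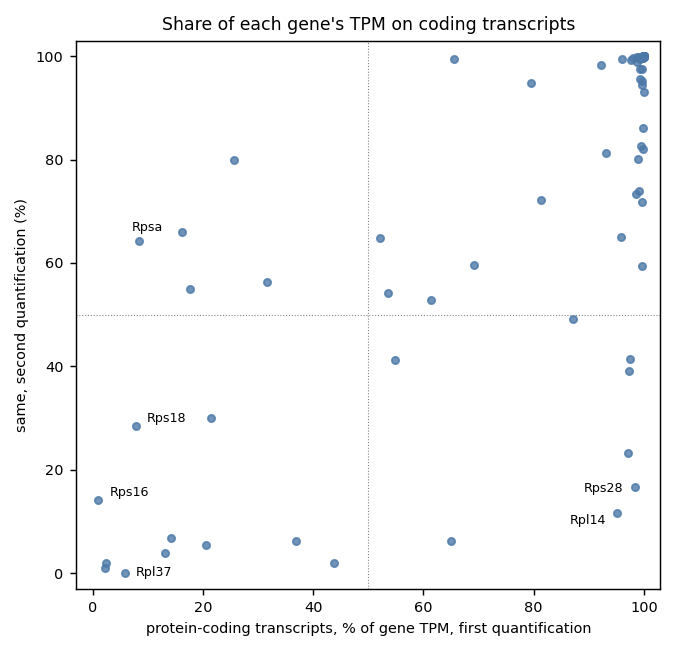
Share of each gene's TPM on protein-coding transcripts, in percent, in the first (x) and second (y) quantification, as means of 2 animals, for the genes with TPM above 0 in both. Dotted lines mark 50%. Most points crowd the upper right corner, 11 genes lie below 50% on both axes, and single genes such as Rpsa (means of 8.45% and 64.2%) or Rpl14 (95.1% and 11.6%) lie far from the diagonal.

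Rps24, whose transcripts differ in small exons at the 3′ end that change the last residues of the protein, was spread over several forms. Rps24-201 took 50.7% of its TPM in replicate 1 and 37.4% in replicate 2, and Rps24-205 took 29.7% and 30.2%. The processed transcript Rps24-203 took 11.7% and 23.9%. In the second quantification Rps24-205 led, with 39.4% and 40.8%, and Rps24-201 had 23.2% in replicate 1 and nearly none in replicate 2. The share of Rps24-205 was alike in the 2 animals under both methods.

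The genes also host other RNAs. Within 29 of the 84 gene bodies lay 56 small nucleolar RNA genes, RNAs that guide chemical changes of ribosomal RNA, with up to 5 in Rpl4. The 84 genes were spread over 19 chromosomes, with 14 on chromosome 7 and 4 on X.

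To compare the libraries, counts were tested gene by gene with an exact binomial test (two-sided, conditional on the gene's total), adjusted by Benjamini-Hochberg over all 14101 tested genes. With 1 library per animal this compares libraries, not conditions. Of the 82 ribosomal protein genes tested, 26 were called higher in replicate 2, where 10.3% of all tested genes were called in that direction. In the other direction 1 was called, against 11.4% of all tested genes. In all 32.9% of the ribosomal protein genes were called, against 21.6% of all tested genes. The test takes in counting error only, so a given ratio is called more readily at high counts. The shares were not matched for counts, so the excess of calls cannot be told apart from an effect of counts. The median log2 ratio of replicate 2 to replicate 1 was 0.06 over these genes and -0.0012 over all tested genes, and 69 of the 82 ratios were above 0.

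The direction differed with the scaling. With library sizes scaled by spike-ins, 4 were higher in replicate 2 and 30 lower, with a median of -0.08, and by total counts 71 were higher and 0 lower, with 0.18. All tested genes moved with them: their median shifted by -0.14 and 0.12. Of the 14101 tested genes, 5018 were called by spike-ins and 4363 by total counts, against 3051 with the main scaling. The part of all calls that was higher in replicate 2 went from 47.5% to 12.9% and 83.2%. Under each of the 4 scalings the ribosomal protein median stood 0.06 above the median of all tested genes, as a common factor shifts both alike. With the trend on length and GC content removed it was 0.01, where core genes have a median length of 566 bases and tested protein-coding genes 2490 bases. When edgeR's exact test was run with a biological coefficient of variation set to 0.1, 0 were called in either direction. The share of all tested genes called under this setting is not given, so that 0 does not set these genes apart.

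The differences were small. At a mean of 100 counts or more, 2 of 80 genes were higher in replicate 2 by 0.32 or more on the log2 scale, where 6.56% of 9515 genes were, and 0 were lower by that much, where 7.04% were. These were Rpl11 and Rps7, whose protein products bind Mdm2 and so restrain the loss of p53. Rpl11 had 750 and 1120 counts, a log2 ratio of 0.42 ± 0.07 (counting SE) with an adjusted binomial p of 1.08e-08. Rps7 had 925 and 1313 counts, a log2 ratio of 0.35 ± 0.06 with an adjusted binomial p of 3.14e-07. Copies held over 50% of the sum for both genes, and with copies the TPM was 132 and 143 for Rpl11 and 210 and 233 for Rps7. The second quantification gave log2 ratios of 0.43 and 0.38.

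Rps14, with 4250 and 5701 counts and almost no TPM on copies, had a log2 ratio of 0.27 ± 0.03 and an adjusted binomial p of 2.10e-18. The ratio was 0.26 in the second quantification. Rps16 (0.26), Rpl27a (0.27) and Rpl34 (0.20) were also called higher in replicate 2, but the ratio of Rpl27a was 0.05 in the second quantification. Rps3 was called higher in replicate 2 by counts, at 0.15, while its TPM was 112.6 and 107.3. The lowest ratio was that of Rps27rt, at -0.36 ± 0.29 on 51.9 and 44.8 counts, which was not called (adjusted binomial p = 0.440). Rps12, with 605 and 574 counts, had a log2 ratio of -0.23 ± 0.08 and an adjusted binomial p of 0.0317. It was the only gene called higher in replicate 1, and its ratio was 0.08 in the second quantification. Rpl7l1 (-0.17), Rpl5 (-0.14), Rps19bp1 (-0.05) and Rps23 (-0.04) also had ratios below 0 and were not called.

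**Figure D5:**
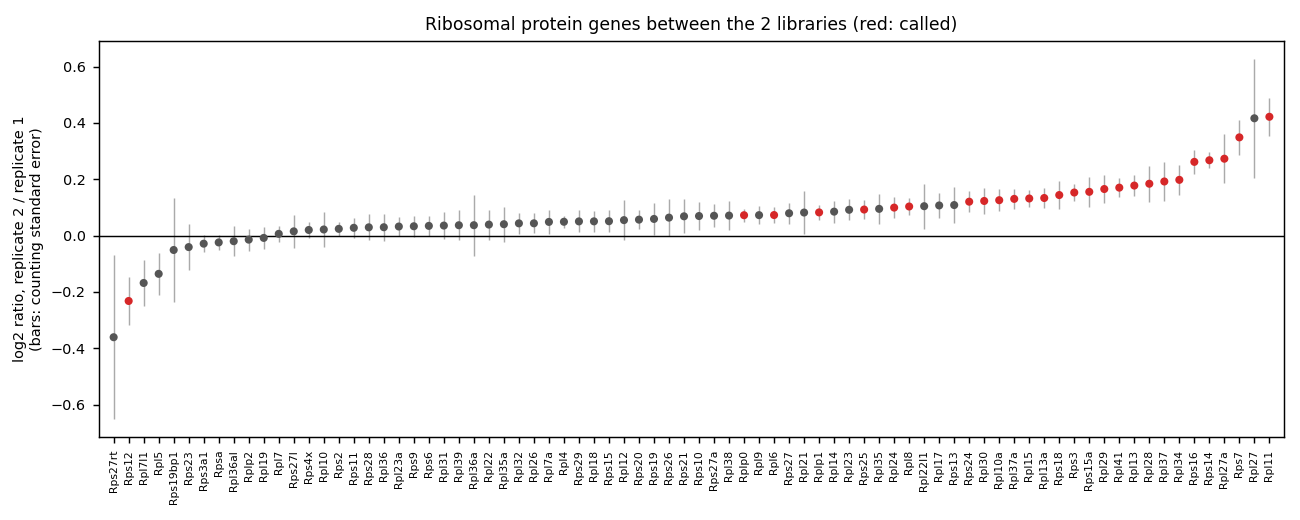
Log2 ratio of replicate 2 to replicate 1 for 78 of the 82 tested genes, in order, with bars of 1 counting standard error. Red points passed the binomial test and the black line is the median of all tested genes. Most points lie just above the line, within 0.2 of it, and 26 red points lie above it against 1 (Rps12) below.

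Markers of other cell types differed between the libraries too, against 10.3% of all tested genes called higher in replicate 2 and 11.4% lower. Mural cell markers (6 of 6 called higher in replicate 2) summed to 71.6 and 89.7 TPM and adipocyte markers (5 of 6) to 77.7 and 94.9 TPM. Endothelial markers (4 of 7) summed to 38.8 and 46.1 TPM, and fibre markers (6 of 6) to the values given above. Fibre markers have very high counts, at which small ratios were called, such as 0.04 for Atp2a1. Fibroblast markers (2 higher and 1 lower of 6) summed to 141.3 and 145.8 TPM, satellite cell markers (0 higher and 1 lower of 4 tested) to 2.55 and 2.13 TPM and macrophage markers (0 of 5 tested) to 5.38 and 3.95 TPM. Erythroid markers (3 of 5) summed to 222.9 and 250.6 TPM, and Schwann cell markers (1 of 4) to 21.02 and 23.0 TPM. Their part in the ribosomal protein ratios was not tested.

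Genes that work with the ribosomal proteins were called in both directions, and their counts are to be read against the shares of all tested genes, 10.3% higher in replicate 2 and 11.4% lower. Of 78 mitochondrial ribosomal protein genes, 2 were called higher in each replicate. Among 35 ribosome assembly factors, Eif6, which keeps the subunits apart, was called higher in replicate 2 (0.33) and 4 were called lower, among them the large assembly ATPase Mdn1 (-0.38). Of 12 genes for ribosomal DNA transcription, Polr1d was called higher in replicate 2, and Polr1a and Taf1c were called higher in replicate 1. Of 7 genes on the list of ribosomal protein chaperones and importers, Tnpo1 was called, higher in replicate 1.

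Of 13 genes that control TOP messages, Cnbp and the cap-binding protein Eif4e were called higher in replicate 2 and 6 were called lower there. In all, 61.5% of the list was called, against 21.6% of all tested genes. The 6 were Larp1 (-0.06), Larp4 (-0.24), Larp4b (-0.11), Mtor (-0.14), its partner Rptor (-0.22) and Eif4ebp2 (-0.06). Larp1 had 8188 and 8739 counts, and the shares called were not matched for counts. Of 16 other genes with TOP messages, 31.3% were called in all, and 4 were called higher in replicate 2: Eef1a1 (0.33), Eef1g (0.11), Pabpc1 (0.16) and Vim (0.19). Naca was called higher in replicate 1 (-0.06). Of the ribosomal protein genes outside the name rule, Fau was called higher in replicate 2 (0.23), while Rack1 (-0.01) was not called.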

How the data were processed

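Total RNA-seq tables of 2 gastrocnemius libraries (300 ng of RNA each, external spike-ins added, per the labels) were used. Per the deposited README, all tables used mm10 and GENCODE M21, with 1 gene and 1 transcript table made from transcriptome alignments (the first quantification) and a further transcript table made from reads and an index (the second). The expected counts that the authors deposited estimate reads for each gene or transcript, and their deposited TPM values are relative abundances over all entries. The deposited percent column gives each transcript's share of its gene. Column names are those RSEM and kallisto write, per the file headers. The aligner, versions and strand setting are not given in the sources used here, so overlapping antisense genes may share reads.

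Here, expected counts were rounded, scaled by TMM (edgeR 4.0.16, R 4.3.3) and tested at a mean of 10 or more with a binomial test at 0.05, with log2 ratios on a prior of 1 count. Ratios of TPM used an added 0.1. On simulated counts of 14109 genes for replicate 2 against replicate 1, the test called 70% of 50 genes at 1.25-fold, 44% at 0.8-fold and 0.0431% of unchanged genes. These counts were drawn with counting error only and no variation between animals. The 0.0431% is therefore not the error rate of the calls reported here. Python 3.11.15, pandas 2.3.3 and statsmodels 0.14.6 were used. Alternative scalings were spike-ins, total counts and size factors from DESeq2 1.42.0, and other alternatives were other minimums and priors, the second quantification, other gene sets, a removed length and GC trend and each animal left out. Copies by shared words were added after the data were seen.

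The genes and lists were chosen with earlier results of these data known. Named genes were the 12 highest and 12 lowest by TPM, the stalk genes, Rpsa, paralog pairs, Rps24, Rps27a, Fau, Rack1, and up to 6 each for the extreme ratios, lowest coding shares and largest differences between quantifications. Other names were chosen after their values were seen, and a few genes are not reported here.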

Additional observations from a re-analysis of the deposited data

How the results depend on the processing

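The main limits are the 2 libraries and the division of reads between near-identical genes. Leaving out an animal gave a median level of 158.8 to 172 TPM, a share of 3.42% to 3.51%, a large over small subunit difference of -0.25 to -0.20, a cytosolic over mitochondrial difference of 2.72 to 2.83, a coding share of 81.8% to 82.6% and a median paralog ratio of 4.39 to 4.41. The median level was 165 TPM as reported, 179.8 in the second quantification, 195.7 with pseudogenes named after a gene added, 176.8 for core genes, 381 when TPM was rescaled to nuclear protein-coding genes alone and 246 with copies added. The share was 3.46% as reported, and 3.95%, 4.00%, 3.38% and 4.65% under the same alternatives without the rescaling. The large over small difference was -0.075 in the second quantification and -0.081 with copies. The cytosolic over mitochondrial difference was 2.998 and 3.35 under these. The coding share was 73.4% in the second quantification. The median paralog ratio was 4.66 there and 4.31 with 1 TPM added. Rpl37 over Rpl37rt turned from -1.32 to 0.30 in the second quantification. The causes were not tested.

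Calls higher in replicate 2 were 26 as reported, 71 by total counts, 4 by spike-ins and 0 with an assumed biological variation of 0.1. Of all 14101 tested genes, 3051 were called in either direction as reported, 4363 by total counts and 5018 by spike-ins. For the assumed variation the share of all tested genes is not given, so that 0 does not set these genes apart. Calls higher in replicate 1 were 1 as reported, 30 by spike-ins, and 0 by total counts, in the second quantification, with counts of copies added and with the assumed variation. The median log2 ratio was 0.06 as reported, 0.18 by total counts, -0.082 by spike-ins and 0.014 with the length and GC trend removed. No paired analysis was possible because the labels name 1 group. At 3 counts the depth gives no lower limit than 0.0815 and 0.0795 CPM.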
